A study of Mus musculus with 6 samples.

Results

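Complement and coagulation proteins of the liver were followed as transcripts in fasted mice with and without Creb3l3. The members were named by gene symbol, as complement components and regulators, coagulation factors and proteins of fibrinolysis that the liver makes, with serpins left out. Of 44 names, 43 matched a probe on the arrays, 21 for complement and 22 for coagulation and fibrinolysis, and Clu was not analysed here. These 43 genes were read by 79 of 45281 probes, and by 1 probe for 21 genes, 2 for 12, 3 for 6 and 4 for 4. Livers came from 3 wild-type (WT) and 3 Creb3l3 knockout (KO) mice, all male C57BL/6 littermates on normal chow that were fasted for 24 h. RNA of each mouse was read on 1 Illumina WG-6 bead array, so replicates are separate animals. The deleted part of the gene, the age of the mice and the cell types that carry the deletion are not given in the sources used here.

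Complement is a chain of plasma proteases and binding proteins that coats and lyses microbes. Its classical and lectin pathways meet the alternative pathway at C3, and the terminal proteins then form a pore in the target membrane. Coagulation is a parallel protease chain that ends in thrombin, which turns fibrinogen into fibrin, and plasmin later dissolves the clot. Hepatocytes make most of these plasma proteins, and many of them rise in the acute phase of inflammation. Creb3l3 encodes CREBH, a hepatocyte transcription factor of the CREB and ATF family that sits in the membrane of the endoplasmic reticulum and is released by cleavage.

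Creb3l3 itself was read at deposited signals of 1201, 949 and 929 on the WT arrays and 148, 283 and 87.9 on the KO arrays. Between 15504 and 16224 probes were detected on each WT array, against 11846 on KO 1, 15867 on KO 2 and 4302 on KO 3. Pearson correlations of log2 signals across probes were 0.973 to 0.993 among 5 arrays and 0.676 to 0.697 between KO 3 and the others. Values are therefore given for the 5 arrays without KO 3, normalized on their own, and then for all 6. In the 5 arrays Creb3l3 was lower in KO by a log2 change of -2.32 (adjusted p = 0.00271, limma), and with all 6 the change was -2.72 (adjusted p = 0.574).

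The member genes showed the dim arrays directly. Each gene stands here for the brightest of its probes, by mean normalized signal. In KO 1 the deposited signal of a member was at a median of 0.408 of its WT mean (range 0.263 to 0.825), in KO 2 at 1.05 (0.759 to 1.42) and in KO 3 at 0.0688 (0.0243 to 0.781). On KO 3 the representative probes spanned only 80.7 to 630, with a median of 105, and 32 of 40 were detected there. On KO 1, which was dimmer than the WT arrays but not as dim as KO 3, 39 of 40 were detected.

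**Figure D1:**
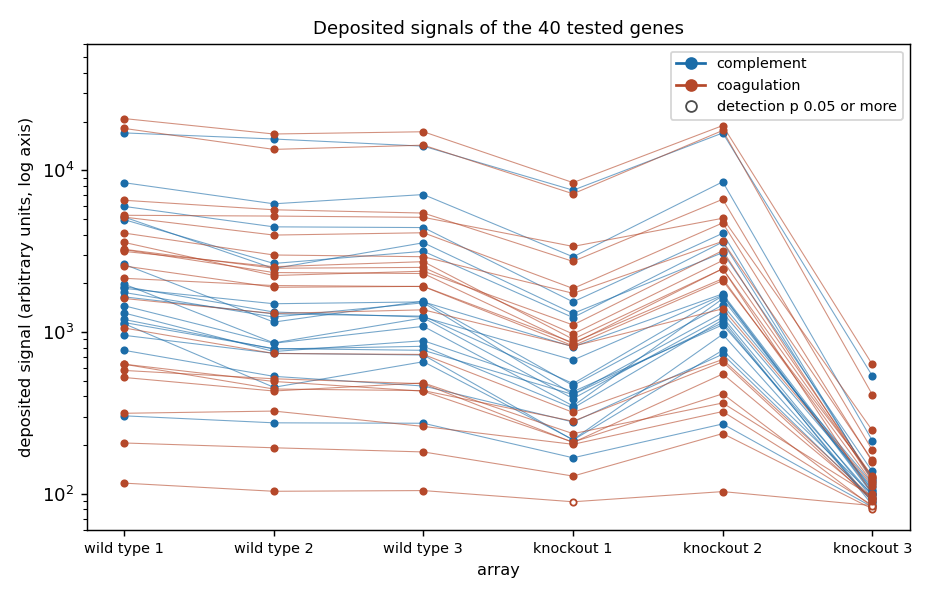
Deposited signal (linear units, log axis) of each member's representative probe on each of the 6 arrays, 1 point and line per gene, with complement and coagulation in separate colours and open points where the detection p was 0.05 or more. Signals on KO 2 cover the range of the WT arrays, those on KO 1 lie lower, and those on KO 3 lie between 80.7 and 630.

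No member differed between genotypes past the threshold of an adjusted p under 0.05. A probe detected on the 3 WT arrays alone could be tested, while one detected on the 2 KO arrays alone could not. This filter favours lower over higher values in KO, and its part in the shares below was not tested. Of 40 genes with a tested probe, 19 of complement and 21 of coagulation, 0 were called, where 0.342% of all 14345 tested probes were (0.0627% higher and 0.279% lower in KO), and the smallest adjusted p of a member was 0.36 (limma). At an unadjusted p under 0.05 there were 3 members, Vwf and Fcna lower and Habp2 higher, where 12.1% of all probes reached it (7.47% lower and 4.66% higher). WT and KO values did not overlap for 10 of 40 members (25%), 2 higher and 8 lower, where 29.3% of all probes did not overlap (12.9% higher and 16.4% lower). Log2 changes of the members ran from -0.56 to 0.44 around a median of 0.00, with 20 below 0 and 20 above, against a median of -0.03 over all probes, of which 54.7% were below 0.

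The precision of these comparisons can be read from the intervals. The median standard error (SE) of a member's log2 change was 0.18, and the 95% interval lay within 1 log2 unit of 0 for 39 of 40 members (97.5%), as it did for 87.7% of all genes. Vwf was the exception. With all 6 arrays 0 members were called as well (0% of 14494 probes, smallest member adjusted p 0.653, limma). At an unadjusted p under 0.05 there were 0 members, where 3.85% of all probes reached it, and 4 did not overlap between genotypes, where 17.4% of all probes did not. The median change was then -0.10, with 23 of 40 members below 0, where 72.7% of all probes were, the range -1.58 to 0.45, the median SE 0.25, and 25 of 40 intervals lay within 1 log2 unit. In liver tissue fewer cells of a type and less RNA per cell cannot be told apart.

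**Figure D2:**
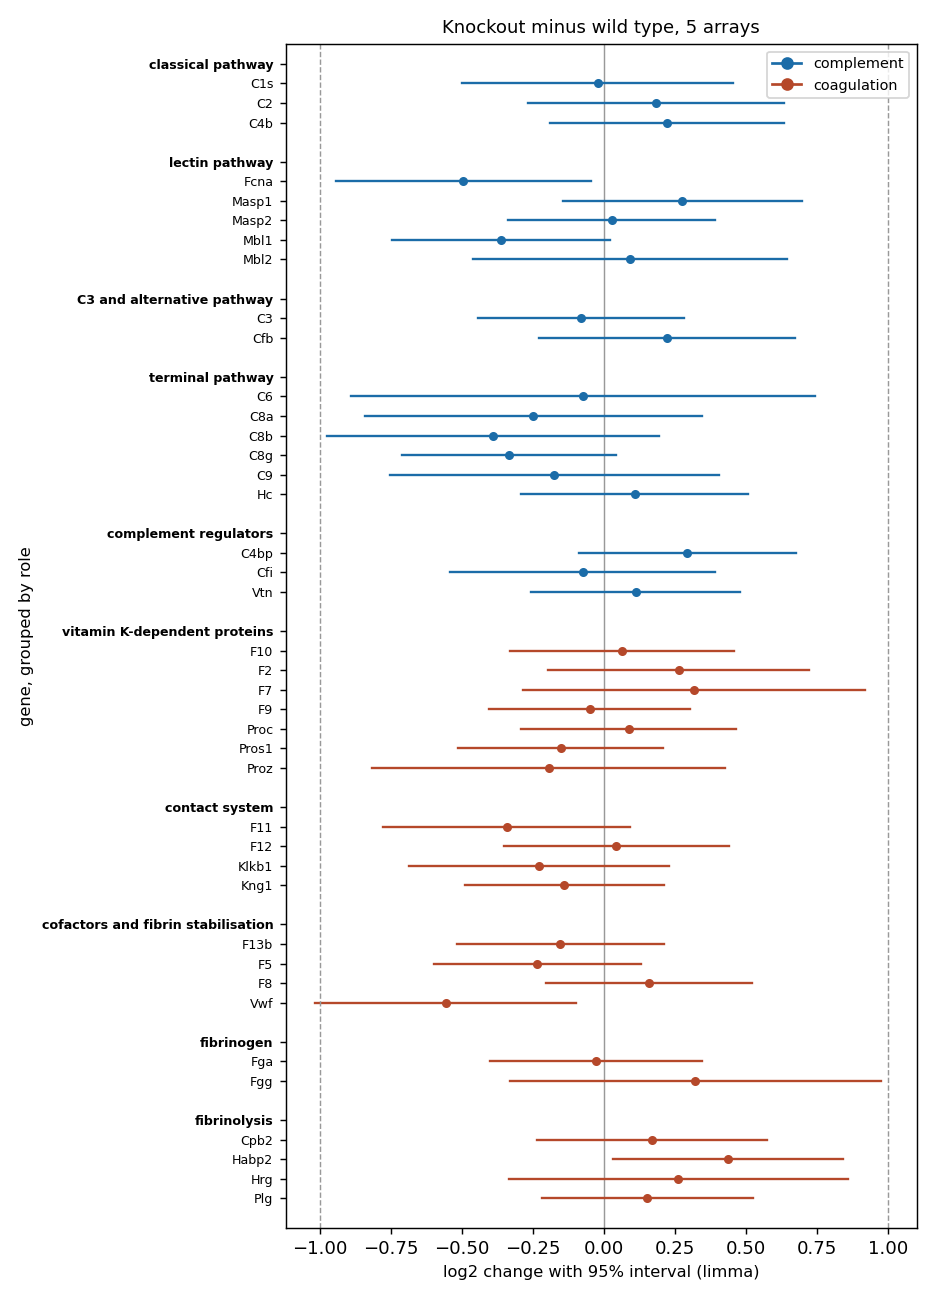
Log2 change (KO minus WT, 3 WT against 2 KO arrays) of each of the 40 tested members, grouped by role, with 95% intervals from limma as bars. All intervals of complement members lie within 1 log2 unit of 0, 2 intervals lie wholly below 0 (Vwf and Fcna) and 1 wholly above (Habp2), and 0 members passed the adjusted threshold.

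In the classical pathway, where antibody-bound C1 cleaves C4 and C2, 0 of 3 tested members were called and the median log2 change was 0.18. C2, the protease part of the C3 convertase, had normalized log2 signals of 9.86, 9.38 and 9.63 on the WT arrays and 9.94 and 9.67 on the KO arrays. C4b, the precursor of the convertase's binding subunit, read 10.44, 10.24 and 10.14 in WT and 10.65 and 10.34 in KO. For both genes KO 1 was the highest of the 5 arrays, but KO 2 lay inside the WT range. The changes were 0.18 ± 0.20 (SE; adjusted p = 0.723) for C2 and 0.22 ± 0.18 (adjusted p = 0.634) for C4b, and 0.17 and 0.10 with all 6 arrays. Other probes of C4b gave 0.24 and 0.14, and because C4b has the close copy C4a, which of them a probe reads is uncertain. C1s, the protease of C1 that cleaves both, read 7.46, 7.64 and 7.62 in WT and 7.85 and 7.26 in KO, with the KO arrays on either side of the WT values (change -0.02 ± 0.21; -1.03 with KO 3, where its probe was not detected). C1r, which activates C1s, was not tested, since its 2 probes read only 87.2 to 93.7 on the WT arrays, near background. C1r and C1s lie side by side and mouse has further copies of both, so a probe may read more than 1 of them.

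In the lectin pathway, which starts when collectins or ficolins bind microbial sugars, 0 of 5 members were called and the median change was 0.03. Fcna, ficolin A, read 9.36, 9.34 and 9.30 on the WT arrays, 8.57 and 9.11 on KO 1 and KO 2. The WT values lay close together (SD 0.03) and both KO values below them, with KO 1 furthest away. Its change was -0.50 ± 0.19 (95% interval -0.95 to -0.05; unadjusted p = 0.0342, adjusted p = 0.392, limma), 1.41-fold lower, and -0.13 with all 6 arrays. Mbl1, a mannose-binding lectin, read 10.31, 10.13 and 10.44 in WT and 9.89 and 9.97 in KO, again with both KO arrays below all WT arrays. The change of Mbl1 was -0.36 ± 0.17 (adjusted p = 0.435), and -0.11 with all 6 arrays. The related lectin Mbl2 did not share this order: it read 10.02, 9.57 and 9.93 in WT and 9.60 and 10.26 in KO, where KO 2 was the highest array and KO 1 near the lowest. Masp1, a protease carried by these lectins, read 9.02, 8.81 and 8.58 in WT and 9.14 and 9.02 in KO, a change of 0.28 ± 0.18 (adjusted p = 0.558; 0.09 with all 6 arrays) with 1 KO array inside the WT range. Masp2, the protease that cleaves C4 and C2, was at 0.03 ± 0.16 at its brightest probe, and its 4 probes spanned -0.33 to 0.03.

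Ficolin A is made by macrophages as well as other cells, so macrophage markers are given beside it. Of 10 Kupffer cell and macrophage markers, 8 were tested and 0 called. Their summed signal was 1268 to 1426 on the WT arrays and 1422 and 1559 on KO 1 and KO 2. At an unadjusted p under 0.05 there were 2 higher markers, Emr1 and Marco, and Marco read near background (normalized WT mean 4.97). The sum was within the WT range on KO 1 and above it on KO 2, while Fcna was below the WT values on both, and the part of these cells in the value of Fcna was not tested.

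C3, the hub of all pathways, read 13.75, 13.94 and 13.77 on the WT arrays and 13.70 and 13.77 on the KO arrays, so that KO 1 lay just below the WT values and KO 2 among them. Its change was -0.08 ± 0.16 (95% interval -0.44 to 0.28; adjusted p = 0.854), and -0.09 with all 6 arrays. Cfb, factor B, the protease part of the alternative C3 convertase, read 10.40, 10.42 and 10.47 in WT and 10.92 and 10.38 in KO. KO 1 was 0.54 above KO 2, which itself was below all WT arrays, and the change was 0.22 ± 0.20 (adjusted p = 0.662), and 0.15 with all 6 arrays. Cfd, factor D, which cleaves factor B and is made mostly by fat cells, had 1 probe at signals of 85.5 to 96.3 on the WT arrays and was not tested.

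The terminal proteins had the lowest median among the complement roles, -0.21, with 5 of 6 members below 0 and 0 of 6 called. Without WT 1 this median was -0.03 with 4 of 6 below 0, and C8a, C8b, C9 and C6 were at -0.04, -0.17, -0.01 and 0.18. C8g, the gamma chain of C8, read 12.18, 12.06 and 12.04 in WT and 11.88 and 11.64 in KO, both KO arrays being below all WT arrays. The change of C8g was -0.33 ± 0.16 (95% interval -0.71 to 0.04; adjusted p = 0.457), and -0.54 with all 6 arrays. C8b, the beta chain, read 10.92, 10.03 and 10.50 in WT and 10.07 and 10.11 in KO, and C8a, the alpha chain, read 10.48, 9.58 and 10.12 and 9.77 and 9.86. For both chains the KO arrays lay between the lowest and the middle WT array. The changes were -0.39 ± 0.25 (adjusted p = 0.551) and -0.25 ± 0.26 (adjusted p = 0.714), and -0.10 and -0.48 with all 6 arrays. Hc, complement C5, which starts the pore, was the member above 0, with 9.72, 9.44 and 9.51 in WT and 9.54 and 9.79 in KO. Its change was 0.11 ± 0.17, and -1.53 with KO 3, where its probe was not detected.

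WT mice differed among themselves in C6, C8a, C8b and C9 by more than the mean difference between genotypes, a pattern picked out after the values were seen. C6 read 9.62, 8.54 and 9.15 in the 3 WT mice and 8.59 and 9.47 in the KO mice, so that WT 1 was 1.09 above WT 2. C9, which forms the wall of the pore, read 11.91, 11.16 and 11.72 in WT and 11.62 and 11.23 in KO. WT 1 exceeded WT 2 by 0.90 for C8a, 0.89 for C8b and 0.76 for C9. The SD over the WT arrays was 0.55 for C6, 0.45 for C8a, 0.45 for C8b and 0.39 for C9, where the median over all probes was 0.14. An SD as large as that of C6 was seen for 0.823% of all tested probes, and one as large as that of C9 for 3.24%. WT 1 was highest and WT 2 lowest for 5 of 6 terminal genes, 8 of 19 complement genes (42.1%), 6 of 21 coagulation genes (28.6%) and 20.0% of all probes. The genes share these arrays, so their joint order is 1 observation. A dim probe of C9 gave a change of -0.56 and the other gave -0.03, the widest gap between probes of a member.

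C8a and C8b lie next to each other with 0 coding genes between them, on opposite strands, and their 250 bases before the start are shown because they carried the same order of mice. Both sequences are from RefSeq, build GRCm38.p6, at chr4:104876399-104876648 (minus strand) for C8a and chr4:104766067-104766316 (plus strand) for C8b. Neither held a match to the motifs searched below, so no letters are in capitals.
C8a: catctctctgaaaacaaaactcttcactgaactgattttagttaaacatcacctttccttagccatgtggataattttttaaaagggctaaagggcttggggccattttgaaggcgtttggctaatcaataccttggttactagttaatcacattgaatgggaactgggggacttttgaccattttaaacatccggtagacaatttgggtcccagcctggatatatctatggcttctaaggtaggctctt
C8b: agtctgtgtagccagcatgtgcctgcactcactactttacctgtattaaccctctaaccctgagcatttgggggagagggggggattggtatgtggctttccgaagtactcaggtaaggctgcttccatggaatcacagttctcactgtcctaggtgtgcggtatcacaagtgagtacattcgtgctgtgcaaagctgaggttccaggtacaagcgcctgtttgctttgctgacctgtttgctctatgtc

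Complement regulators gave a median of 0.11 with 0 of 3 called. C4bp, the C4b-binding protein that dismantles the classical convertase, read 9.66, 9.45 and 9.41 in WT and 9.88 and 9.72 in KO, both KO arrays being above all WT arrays. Its change was 0.29 ± 0.17 (95% interval -0.09 to 0.68; adjusted p = 0.499), its other probe gave 0.42, and the change was -0.73 with KO 3, where the representative probe was not detected. Cfi, factor I, the protease that inactivates C3b and C4b, read 11.87, 11.28 and 11.57 in WT and 11.53 and 11.46 in KO (change -0.08 ± 0.20; -0.17 with all 6 arrays). Its KO values sat inside a wide WT range, in which WT 1 was again the highest and WT 2 the lowest. Vtn, vitronectin, which blocks insertion of the terminal complex, read 12.67, 12.49 and 12.72 in WT and 12.72 and 12.75 in KO, a change of 0.11 ± 0.16 (adjusted p = 0.797), and 0.06 with all 6 arrays.

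**Figure D3:**
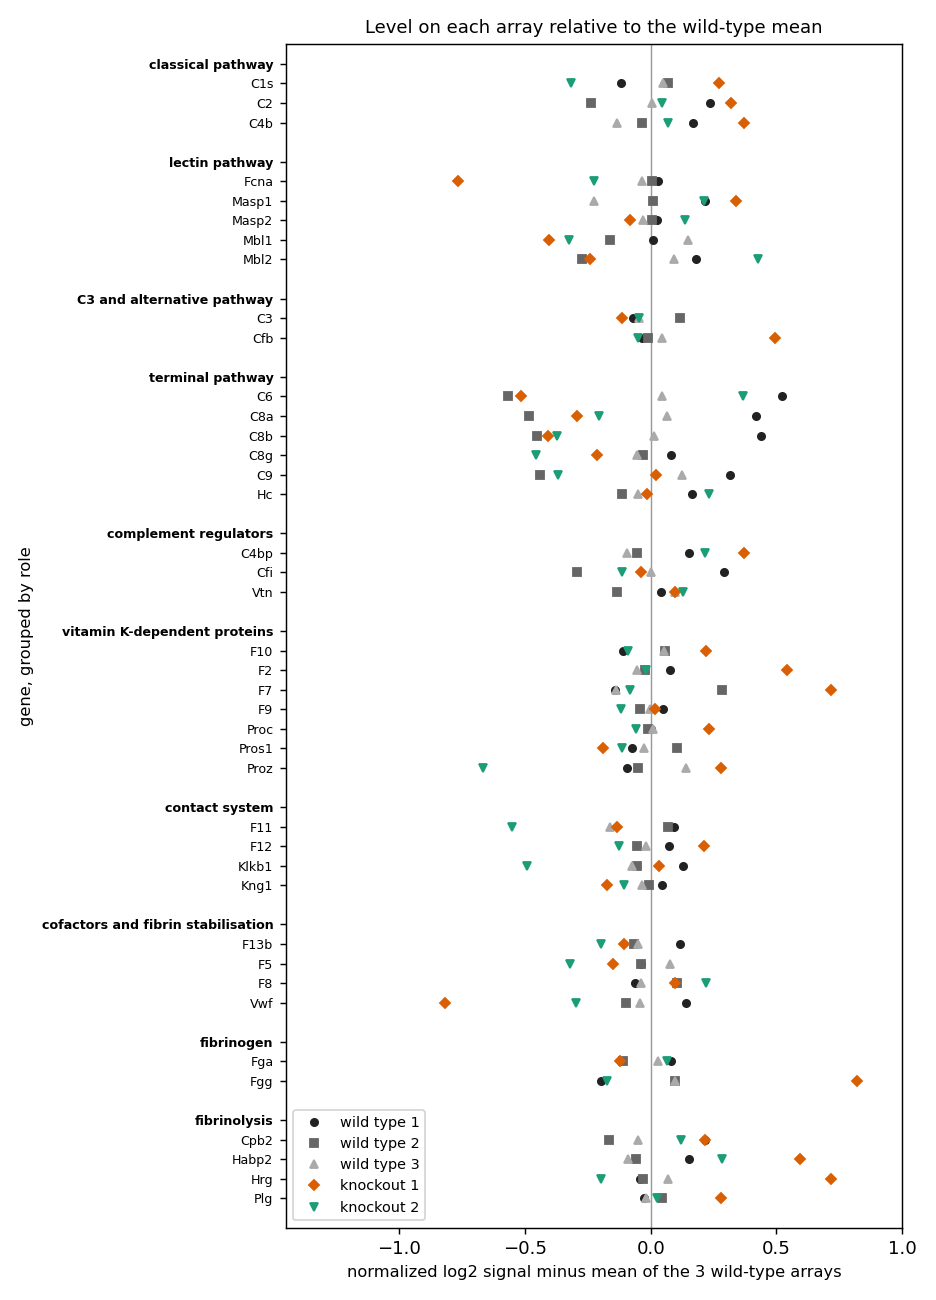
Normalized log2 signal of each tested member on each of the 5 arrays, drawn as the difference from its WT mean, with genes in rows by role and 1 symbol per array. WT 1 is high and WT 2 low for C6, C8a, C8b and C9, and KO 1 departs from the WT mean in the opposite direction to KO 2 for most vitamin K-dependent members.

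Among the vitamin K-dependent proteins, 0 of 7 were called and the median was 0.06. F2, prothrombin, read 11.57, 11.47 and 11.44 on the WT arrays and 12.03 and 11.47 on KO 1 and KO 2. KO 1 stood above every other array and KO 2 among the WT arrays, giving a change of 0.26 ± 0.20 (adjusted p = 0.608), and 0.35 with all 6 arrays. F7, which starts the extrinsic pathway with tissue factor, had the same order, with 7.53, 7.95 and 7.53 in WT and 8.39 and 7.59 in KO and a change of 0.32 ± 0.26 (adjusted p = 0.641). With KO 3, where the F7 probe was not detected, the change was -0.78. Pros1, protein S, a cofactor of activated protein C, read 8.58, 8.76 and 8.63 in WT and 8.47 and 8.54 in KO, a small gap with both KO arrays lowest (change -0.15 ± 0.16; adjusted p = 0.711; -0.01 with all 6 arrays). Proz, protein Z, showed the widest gap between the KO arrays in this group, 8.79 and 7.84, around WT values of 8.41, 8.46 and 8.65. The changes of F9, F10 and Proc (protein C) were -0.05 ± 0.15, 0.06 ± 0.17 and 0.09 ± 0.16, all overlapping WT.

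The contact system, which starts clotting on negatively charged surfaces, had a median of -0.18 with 3 of 4 members below 0 and 0 called, and a median of -0.05 without KO 2. F11, factor XI, read 8.71, 8.69 and 8.46 in WT and 8.48 and 8.07 in KO, with KO 2 below all WT arrays and KO 1 just above the lowest of them. Its change was -0.34 ± 0.19 (95% interval -0.78 to 0.09; adjusted p = 0.493), its 3 probes spanned -0.34 to -0.22, and the change was -1.58 with KO 3, where the representative probe was not detected. Klkb1, plasma prekallikrein, which lies beside F11 with 0 coding genes between them, read 9.51, 9.33 and 9.31 in WT and 9.42 and 8.89 in KO. Again KO 2 was the lowest array and KO 1 was within the WT range (change -0.23 ± 0.20; adjusted p = 0.658; -0.19 with all 6 arrays). Kng1, kininogen, which is cleaved to bradykinin, read 14.09, 14.04 and 14.01 in WT and 13.88 and 13.94 in KO, close values with both KO arrays lowest. The change of Kng1 was -0.14 ± 0.15 (adjusted p = 0.727; -0.14 with all 6 arrays) and 0.14 with cyclic loess. Its other probes gave -0.01 and -0.29, each with KO 1 above all WT arrays and KO 2 below them. Mouse has a close copy, Kng2, so probes of Kng1 may be shared. F12, factor XII, was at a change of 0.04 ± 0.17.

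Cofactors and fibrin stabilisation gave a median of -0.19 with 0 of 4 called. Vwf, von Willebrand factor, which carries factor VIII and is made by endothelial cells and megakaryocytes rather than hepatocytes, had the lowest log2 change of the members, but with a probe near background. Its deposited signals were 116, 104 and 105 on the WT arrays, 89.2 on KO 1, 103 on KO 2 and 84.5 on KO 3, and of the KO arrays it was detected on KO 2 only. Normalized values were 5.18, 4.94 and 4.99 in WT and 4.22 and 4.74 in KO, a change of -0.56 ± 0.20 (95% interval -1.02 to -0.10; unadjusted p = 0.0234, adjusted p = 0.36, limma), and -0.50 with all 6 arrays. KO 1 was the furthest below, at a signal not told apart from background there. The size of the change depended on the background treatment: it was -0.24 with an offset of 50, -0.19 with no background correction and -0.17 with the authors' value table, where Fcna lay lower at -0.47, -0.43 and -0.42. Of 9 endothelial markers, 8 were tested and 0 called, with a summed signal of 2196 to 2433 on the WT arrays, 1891 on KO 1 and 2290 on KO 2. That sum rested on Clec4g, and the other 7 markers, summed without it after the values were seen, read 816, 923 and 872 in WT, 903 on KO 1 and 1106 on KO 2. The median change of the list was 0.08. The part of these cells in the value of Vwf was not tested.

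F5, factor V, the cofactor of factor Xa, read 11.21, 11.21 and 11.32 in WT and 11.10 and 10.92 in KO. Both KO arrays lay below the WT arrays, with a change of -0.23 ± 0.16 (adjusted p = 0.563; -0.15 with all 6 arrays). The other probe of F5 gave -0.08, with KO 1 above all WT arrays and KO 2 below them. F8, factor VIII, the cofactor of factor IXa, read 6.71, 6.88 and 6.73 in WT and 6.87 and 6.99 in KO (change 0.16 ± 0.16; -0.68 with KO 3, where its probe was not detected), and its 3 tested probes disagreed in sign, from -0.15 to 0.16. F13b, the carrier subunit of factor XIII, which crosslinks fibrin, was at a change of -0.15 ± 0.16, with both KO arrays below all WT arrays.

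Fibrinogen is built from 3 chains whose genes lie side by side in the order Fgg, Fga and Fgb, with 0 coding genes between them. Fga, the alpha chain, read 13.84, 13.65 and 13.79 on the WT arrays and 13.64 and 13.83 on the KO arrays, overlapping ranges, with a change of -0.03 ± 0.16 (95% interval -0.40 to 0.35; -0.14 with all 6 arrays) and -0.07 at its other probe. Cyclic loess gave 0.24 for Fga, so its sign depended on the processing. Fgg, the gamma chain, read 11.95, 12.24 and 12.24 in WT and 12.96 and 11.97 in KO. KO 1 was thus 0.99 above KO 2. The change of Fgg was 0.32 ± 0.28 (95% interval -0.33 to 0.98; adjusted p = 0.663), and 0.45 with all 6 arrays. The neighbouring chains thus did not share their order over the mice. The probe of Fgb, the beta chain, gave deposited signals of 98.6, 99.8 and 94.8 on the WT arrays and 93.3, 103 and 81.6 on the KO arrays. It was detected on too few arrays to be tested, so the beta chain has no tested value beside its partners.

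The 250 bases before the start of each fibrinogen gene are shown because a C/EBP-type core lies in the Fga and Fgb sequences but not in that of Fgg. C/EBP factors are liver transcription factors of the acute phase response. Sequences are from RefSeq, build GRCm38.p6, at chr3:83025903-83026152 (plus strand) for Fga, chr3:83049864-83050113 (minus strand) for Fgb and chr3:83007474-83007723 (plus strand) for Fgg, and capitals mark the match to TTGCNNAA.
Fga: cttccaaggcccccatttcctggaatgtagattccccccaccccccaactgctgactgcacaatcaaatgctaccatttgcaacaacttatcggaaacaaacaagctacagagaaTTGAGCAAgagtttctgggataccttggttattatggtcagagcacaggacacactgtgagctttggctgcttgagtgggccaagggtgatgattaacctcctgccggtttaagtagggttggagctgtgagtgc
Fgb: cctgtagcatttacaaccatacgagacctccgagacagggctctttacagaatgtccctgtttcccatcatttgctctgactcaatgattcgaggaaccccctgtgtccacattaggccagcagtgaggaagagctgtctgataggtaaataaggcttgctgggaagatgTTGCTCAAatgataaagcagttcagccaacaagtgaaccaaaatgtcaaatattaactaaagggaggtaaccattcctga
Fgg: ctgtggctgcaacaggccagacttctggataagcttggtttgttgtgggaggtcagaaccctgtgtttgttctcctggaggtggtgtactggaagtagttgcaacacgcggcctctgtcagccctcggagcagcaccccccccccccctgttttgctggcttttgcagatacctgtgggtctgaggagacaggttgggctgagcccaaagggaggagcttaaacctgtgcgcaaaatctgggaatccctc

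Fibrinolysis, the removal of fibrin, had the highest median of the roles, 0.21, with 4 of 4 members above 0 and 0 called, but these 4 lay between -0.54 and -0.30 when arrays were scaled by their medians, and their median was 0.07 without KO 1. Habp2, a plasma protease that activates factor VII and urokinase, read 8.71, 8.50 and 8.47 in WT and 9.16 and 8.84 in KO, with both KO arrays above all WT arrays. Its change was 0.44 ± 0.18 (95% interval 0.03 to 0.84; unadjusted p = 0.0381, adjusted p = 0.393, limma), 1.35-fold higher, and its other probes gave 0.41 and 0.14. With all 6 arrays the change of Habp2 was 0.01. Plg, plasminogen, the precursor of plasmin, read 12.31, 12.38 and 12.32 in WT and 12.62 and 12.37 in KO, with KO 1 highest and KO 2 within the WT range (change 0.15 ± 0.16; adjusted p = 0.721; 0.10 with all 6 arrays). Its tested probes spanned -0.05 to 0.34. Hrg, histidine-rich glycoprotein, which binds plasminogen and heparin, read 10.19, 10.21 and 10.31 in WT and 10.95 and 10.04 in KO, so that the KO arrays lay on either side of the WT arrays (change 0.26 ± 0.26; 0.37 with all 6 arrays). Cpb2, a carboxypeptidase that slows fibrinolysis by trimming fibrin, read 11.39, 11.002 and 11.12 in WT and 11.38 and 11.29 in KO, all KO values being inside the WT range, with a change of 0.17 ± 0.18 (95% interval -0.24 to 0.57; adjusted p = 0.718) and 0.09 with all 6 arrays.

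Cpb2 is shown by sequence because its upstream 250 bases were the single member sequence with a full cAMP response element, TGACGTCA, a motif that CREB and ATF factors bind. The sequence is from RefSeq, build GRCm38.p6, at chr14:75242037-75242286 (plus strand), and capitals mark the motif.
Cpb2: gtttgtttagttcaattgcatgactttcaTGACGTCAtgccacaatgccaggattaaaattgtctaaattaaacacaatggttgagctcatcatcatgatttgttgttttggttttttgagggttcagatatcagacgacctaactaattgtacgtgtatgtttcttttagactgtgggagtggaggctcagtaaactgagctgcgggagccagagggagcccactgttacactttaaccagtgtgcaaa
Of 34 member genes with a promoter sequence, Cpb2 alone (2.94%) held TGACGTCA on either strand, as 1.55% of all 32851 promoters did. The shorter TGACG, which is part of the full element, was in 5 of 34 (14.7%), those of C4bp, Cpb2, F2, F9 and Masp2, against 17.8% of all. These 5 genes had log2 changes of 0.29, 0.17, 0.26, -0.05 and 0.03. TTGCNNAA, searched on both strands, was in 10 of 34 (29.4%), 3 of complement (C1s, C3 and C9) and 7 of coagulation (F11, F9, Fga, Fgb, Habp2, Hrg and Klkb1), against 9.56% of all. Member shares count genes with a match in any of their promoter entries, while shares of all count single entries, so the units differ. A match is a description of letters in this window and not a measured binding site.

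Complement and coagulation members were then set side by side. The median log2 change was -0.02 for 19 complement genes (10 below 0, 9 above, range -0.50 to 0.29) and 0.04 for 21 coagulation genes (10 below, 11 above, range -0.56 to 0.44). The difference between the medians, 0.07, was smaller than its SD of 0.157 between arrays of a genotype. By array, the complement median relative to the WT mean was 0.16, -0.12 and 0.00 on the WT arrays and -0.04 and -0.05 on the KO arrays. The coagulation median was 0.04, -0.03 and -0.03 on the WT arrays, 0.21 on KO 1 and -0.11 on KO 2. Neither arm separated the genotypes, since the KO medians of complement lay inside the WT range and those of coagulation on either side of it. With all 6 arrays the medians were -0.11 and 0.01, and 0 genes were called in each arm.

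The KO mice differed from each other in coagulation more than in complement in that median, so each was also set alone against the 3 WT mice. With a single array in 1 group this assumes that it varies as the WT arrays do. The median change of coagulation genes was 0.21 with KO 1 alone and -0.12 with KO 2 alone, and that of complement genes was -0.03 and -0.05. Of 40 members, 9 were above 0 with each KO mouse (22.5%), 13 below 0 with each (32.5%) and 18 of opposite sign (45%), where 25.8%, 32.1% and 42.1% of all probes were. The comparisons share the WT arrays. Of the 7 vitamin K-dependent members 6 were of opposite sign, while F5, F13b and F8 kept theirs. Some of these 6 rested on values near 0, as F2 at -0.02 with KO 2 and F9 at 0.01 with KO 1. The genes share these arrays, so their joint pattern is 1 observation. The median absolute difference between KO 1 and KO 2 was 0.27 for members and 0.32 for all probes.

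With KO 1 alone 5 of 40 members were called (12.5%), where 16.7% of 13351 probes were. They were Fgg at 0.82 (adjusted p = 0.0263), Hrg at 0.72 (0.0239), F2 at 0.55 (0.0496), Fcna at -0.77 (0.0188) and Vwf, all by limma. Vwf entered that fit through the WT arrays only and was not above background on KO 1, so its fitted value there is no measured change. With KO 2 alone 0 members were called, where 0.29% of 14122 probes were, and Fgg, Hrg, F2 and Fcna were at -0.17, -0.19, -0.02 and -0.23. Fgg, Hrg and F2 were thus above 0 with KO 1 only, and Fcna was below 0 with each. F2 lay close to 0 with KO 2, and 42.1% of all probes were of opposite sign between the KO mice. KO 1 was the dimmer of these arrays, at a median of 0.408 of the WT signal over the members, and the part of this in its calls was not tested.

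**Figure D4:**
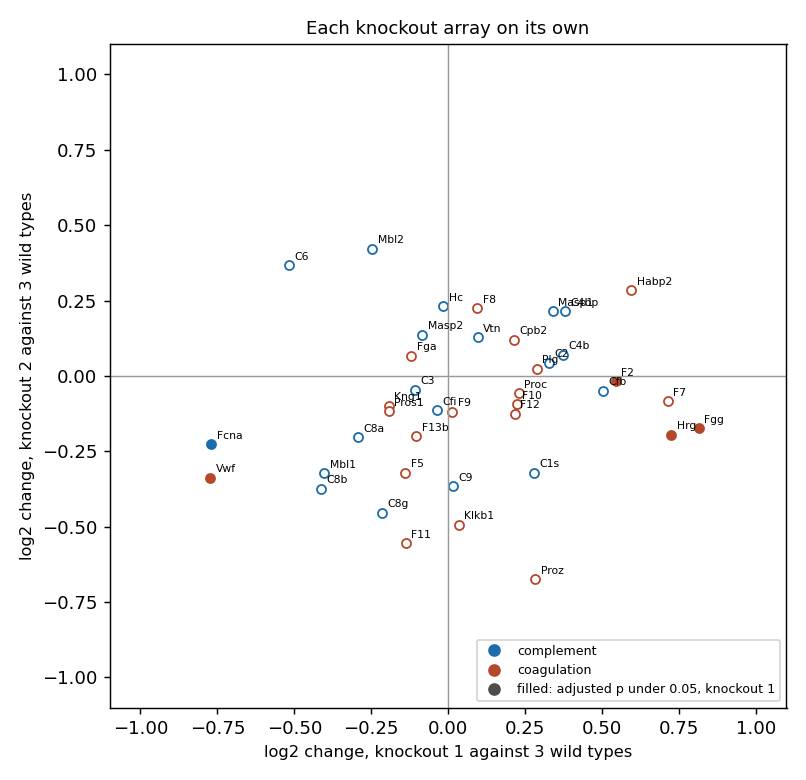
Log2 change of each tested member with KO 1 alone (horizontal axis) and KO 2 alone (vertical axis), each against the same 3 WT arrays, with arms in separate colours and filled points for the 5 members called with KO 1 alone. Of the 40 points 18 lie in the quadrants of opposite sign, and Fgg lies at 0.82 and -0.17.

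Where a gene had several probes they mostly gave the same sign. Of 20 members with more than 1 tested probe, 10 had all changes below 0, 6 all above and 4 of both signs (F8, F12, Masp2 and Plg), and the median range between probes of a gene was 0.116. Members that lie side by side in the genome did not have to share a change: F7, F10 and Proz, next to each other, were at 0.32, 0.06 and -0.19, and Cfb and C2 both at positive values of 0.22 and 0.18.

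Other genes of both pathways, receptors, regulators and cofactors that are no members, also gave 0 calls. As 0.342% of all tested probes were called, 0 calls in lists this short do not set them apart. At an unadjusted p under 0.05 there was 1 gene in each list, where 12.1% of all probes reached it. Of 23 other complement genes 14 were tested, 0 were called, and changes ran from -0.47 to 0.39 around a median of 0.03. Cfp, properdin, which stabilises the alternative convertase, was at 0.39 ± 0.15 (adjusted p = 0.391, limma), the only gene of that list at an unadjusted p under 0.05. Of 29 other coagulation and fibrinolysis genes 15 were tested, 0 were called, and changes ran from -0.43 to 0.23 around a median of -0.06. S100a10, which binds plasminogen at the cell surface with annexin A2, was at -0.43 ± 0.18 (adjusted p = 0.401, limma). Serpinc1, antithrombin, was at -0.16 ± 0.16, and Serping1, the inhibitor of C1, was at -0.07 ± 0.16.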

How the data were processed

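Liver RNA of 6 mice was read on 1 array each. Genotype and replicate number follow the sample titles. The deposited tables give each probe's signal, a linear intensity that per the file headers is an average over beads and by its values is not normalized, and a detection p-value. Both came from BeadStudio 3, per the submitters' processing notes. The authors' value table, used as an alternative, also holds intensity values on a linear scale. They matched quantile-normalized array signals, so no centring or direction was in doubt, and column medians were 91.7 for WT and 91.7, 91.7 and 91.6 for KO. The WT 2 and WT 3 labels differ between that table and the array tables: its WT 2 column lay at most 0.00263 (log2) from array WT 3 and up to 1.5 from array WT 2. Which source is right is not known, so WT 2 and WT 3, named here as in the array tables, may be exchanged. How the authors normalized it was not given in the sources used here.

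In limma 3.58.1 (R 4.3.3), background was corrected by normexp, with negative controls derived from the detection p-values and an offset of 16, before quantile normalization and log2. A probe was tested if its detection p was under 0.05 on 3 arrays or more. With 3 WT and 2 KO arrays, this keeps probes seen in WT only and drops those seen in KO only. The 5-array fit called 9 probes higher and 40 lower in KO. Under the strict filter, a detection p under 0.01 on every array, 20 were higher and 36 lower. Genotype was the only term of the lmFit and eBayes fit. P-values are two-sided, adjusted by Benjamini-Hochberg over all tested probes, and called under 0.05. KO 3 was left out of the 5-array values after its array was seen to stand apart. Levels of different probes were not compared. The steps were tested on simulated data of 3 WT and 2 KO arrays of equal brightness. Changes were set in brighter probes only, and all probes were given the same spread. The counts below therefore do not cover dim members such as Vwf or those with a wide WT spread such as C6. Of 50 probes set at a log2 change of -0.5, 2 were called. Of 50 set at -1 and 50 set at 1, 35 and 33 were called. The number of arrays limits the precision.

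Of the 43 symbols in the array tables, 41 are current in a RefSeq gene table of GRCm38.p6 and 2 were found through a synonym (C1r and C1s). That table served for names and neighbours only. The members and lists were chosen with earlier results of these data known. Values by array are given for any called member, up to 3 members of each role with the smallest p, and C3, C4b, Hc, Cfb, F2, F7, Fga, Fgb, Fgg and Plg. C6, C9, Mbl2 and Proz were added after their values were seen. Alternatives were other normalizations, offsets, filters and fits, array weights, the authors' table and leaving out each mouse. Figures were drawn with matplotlib 3.10.9.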

Additional observations from a re-analysis of the deposited data

How the results depend on the processing

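Of the 40 tested members 0 were called under the alternatives run on the 5 arrays, except without KO 2. That fit rests on KO 1 alone, and its calls are given above beside the larger share of all probes called. When each mouse was left out, coagulation medians ran from -0.12 (without KO 1) to 0.21 (without KO 2). The difference between the arms ran from -0.071 to 0.25. Median scaling moved the median of all probes to -0.42, and those of complement and coagulation to -0.68 and -0.57. Of the 39 members that could be fitted under all 19 alternatives, 9 kept the sign of the change. Median scaling put every tested member below 0, so only members already below 0 could keep their sign. The filters and the trend and robust fit left the changes of these 39 as they were. The count is therefore no measure of how stable a change was. Vwf, which the strict filter removed, is not among the 39.

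Over all probes 49 were called. The count was 0 with all 6 arrays, 83 with cyclic loess, 4 with median scaling, 108 with an offset of 50, 85 with no background correction, 83 with the authors' value table, 1 with no filter, 122 with trend and robust fitting and 32 with array weights. It was 9 to 2234 when each mouse was left out (15 without WT 1, 9 without WT 2 or WT 3, 41 without KO 1, 2234 without KO 2). With 6 arrays 0 were called, but 558 were at an unadjusted p under 0.05. Calls numbered 3 with cyclic loess and 5 with trend and robust fitting. Array weights called 2832 of 14494 probes, and among them 6 of 40 members (Fgg, F2, Hrg, Fcna, Habp2 and Vwf), a smaller share than of all probes. Calls numbered 0 to 49 when each mouse was left out (49 without KO 3). The cause was not tested.

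Deviations of same-numbered mice gave r = -0.05, -0.05 and 0.04 across probes. These values cannot decide whether the numbers pair the mice. The dim array KO 3 was among the KO arrays used for them, and WT 2 and WT 3 may be exchanged. With the replicate block 47 probes were called, with WT 2 and WT 3 exchanged 56, and the medians were 0.00 for complement and 0.03 for coagulation. On KO 3, 8 of 40 representative probes were not detected.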

Other observations

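Markers of other cell types were read from fixed lists on the 5 arrays. By limma 0 of their tested genes were called, where 0.342% of all tested probes were. Of 10 hepatocyte markers 9 were tested, with a median log2 change of 0.01. Their summed normalized signals were 96639, 102959 and 96816 on the WT arrays, 97077 on KO 1 and 98788 on KO 2. These sums rested on the brightest markers, Apoa1, Ttr and Ahsg. Quantile normalization gives every array the same set of values, so near-equal sums of such bright probes cannot show whether hepatocyte RNA differed. The 8 tested Kupffer cell and macrophage markers ran from C1qa at -0.16 to Marco, with a median of 0.25, and Csf1r, Clec4f and Vsig4 were at 0.00, 0.04 and 0.09. Marco, a scavenger receptor, was at 0.95 ± 0.26 (adjusted p = 0.252, limma). Its normalized WT mean of 4.97 was below the 5.04 of Vwf, so this value was near background. Emr1, the F4/80 antigen, was at 0.69 ± 0.17 (adjusted p = 0.219, limma). Endothelial markers differed among themselves, with Lyve1 at 0.64 ± 0.25 and Clec4g at -0.42 ± 0.17. The erythroid sum was 11951 to 14460 on the WT arrays, 5321 on KO 1 and 13133 on KO 2. It rested on Hbb-b1, at -0.64 ± 0.35, and the other tested marker, Alas2, was at -0.09 ± 0.17. Of 5 neutrophil markers 2 were tested, and their sum was 82.5 to 92.1 on the WT arrays, 83.1 on KO 1 and 223 on KO 2. Of 5 stellate cell markers 3 were tested, with sums of 3800 to 4171 on the WT arrays, 3928 on KO 1 and 4580 on KO 2. These sums rested on Dcn, at 0.13 ± 0.16. The others differed in sign: Des was at 0.28 ± 0.18, and Reln at -0.48 ± 0.18, with both KO arrays below all WT arrays. Bile duct markers (2 of 5 tested) had a median of 0.27, the tested adipocyte marker was at 0.34 and the tested lymphocyte marker at 0.50. No acinar pancreas, platelet or megakaryocyte marker passed the filter. The part of these cell types in the values of the complement and coagulation members was not tested.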
